A study of Danio rerio with 5 samples.

Results

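The genes described here are 7 Bmp ligand genes (bmp2a, bmp2b, bmp4, bmp5, bmp6, bmp7a and bmp7b) and 3 Id genes (id1, id2a and id3), 10 of the 31540 genes in the tables. They were found by their gene names. The name id1 stands on 2 rows, so the 10 genes have 11 rows. Expression was measured by stranded mRNA sequencing of zebrafish (Danio rerio) caudal fin, a tissue that regrows after amputation. The labels give 3 libraries as 24h and 2 libraries as Control, call the material of both groups regenerated tissue, and name no strain, age, allele, sex or pooling of animals. The series as a whole concerns fins at 1 and 3 days after amputation. What the Control libraries are is not said, and values are read only as 24h against Control. Nothing ties a library to an animal of its own. The p-values therefore measure only how much these 5 libraries vary, and that variation may be technical.

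Bone morphogenetic proteins (Bmps) are secreted dimers of the TGF-beta superfamily. They bind pairs of type I and type II receptor kinases, which phosphorylate Smad1, Smad5 or Smad9, and these enter the nucleus with Smad4. The Id genes are classic direct targets. Id proteins have a helix-loop-helix but no DNA-binding region, and they hold E proteins and their partners away from DNA. In the zebrafish fin, Bmp signalling is known for its part in outgrowth and in bone formation of the rays.

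The libraries held 14958600 to 22341452 reads in genes in the 24h group and 15448344 and 18887167 in the Control group. Levels between groups are given in CPM, reads scaled to library size with TMM factors. Levels between genes are given in TPM, which also accounts for exon length. The skin keratin gene krt5 was abundant in both groups, at a mean of 20552 TPM in the 24h libraries, against 27508 in the Control libraries. Of 7 skeletal muscle and 5 liver genes, 3 and 1 had enough reads to be tested, and summed levels reached at most 28.3 CPM for muscle and 1.52 CPM for liver in any library.

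Transcripts of bmp2a, bmp7a, bmp7b and id1 were higher in the 24h libraries, and those of bmp4 and id3 were lower. The ligands bmp2b, bmp5 and bmp6 and the Id gene id2a did not pass the test. Thus 4 of the 10 genes tested were higher (40%) and 2 were lower (20%) by edgeR's quasi-likelihood test with p-values adjusted after Benjamini and Hochberg (threshold 0.05), where 9.43% of all 19034 genes tested were higher and 14.8% lower, 24.3% in all. The CPM of the groups did not overlap for 8 of the 10 genes, 5 with the 24h libraries above and 3 with them below. Among all genes tested the groups did not overlap in 56.8%, with the 24h libraries above in 27.7% and below in 29.1%. Without Control replicate 1 the counts were 3 and 1, and without Control replicate 2 they were 4 and 1, where 1790 and 2208 genes were called in all. The median log2 fold change was 0.73 over the 10 genes and -0.004 over all genes tested.

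**Figure D1:**
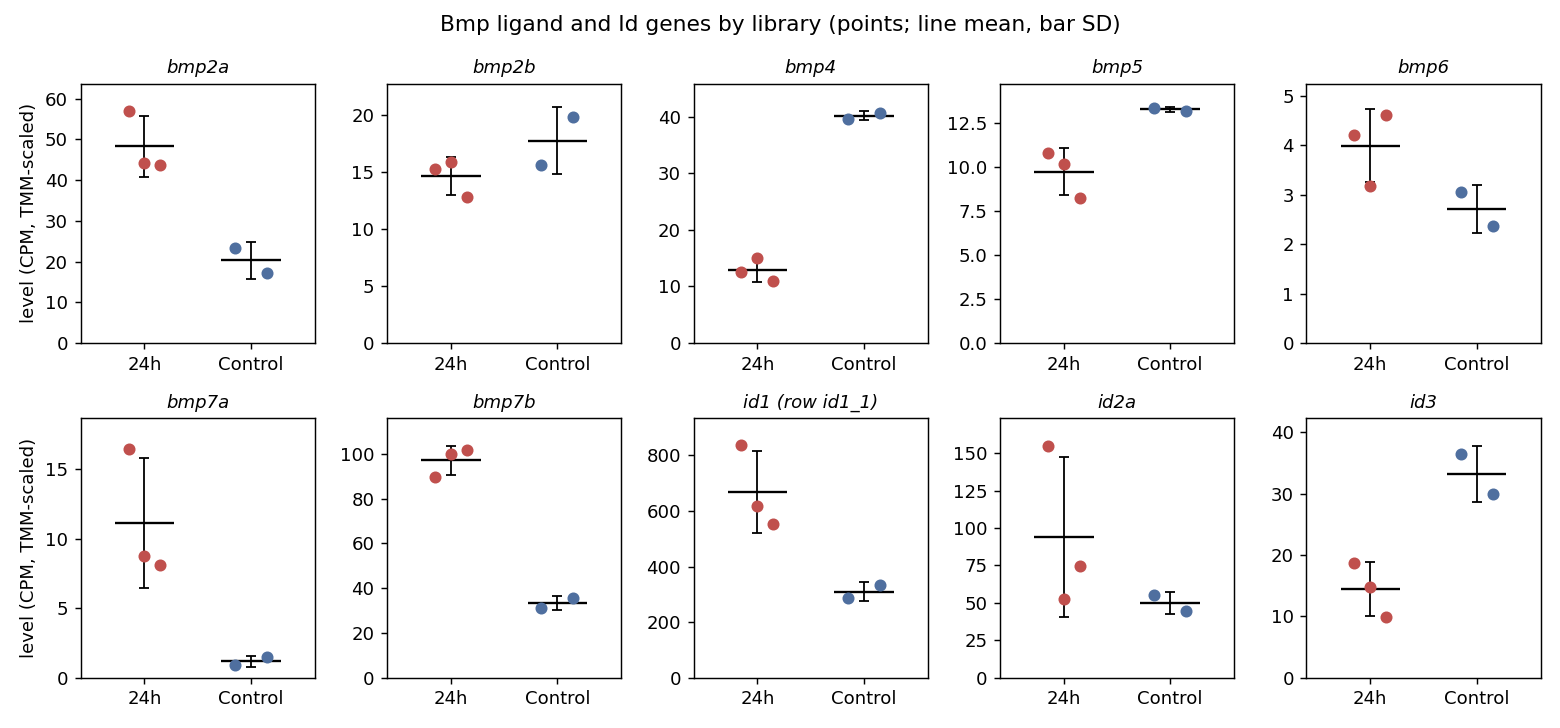
Level of each gene in CPM (TMM-scaled, linear axes from 0) in the 3 24h libraries (red, left) and the 2 Control libraries (blue, right); lines are group means and bars are SD. The 24h points lie above the Control points for bmp2a, bmp6, bmp7a, bmp7b and id1, below them for bmp4, bmp5 and id3, and overlap them for bmp2b and id2a.

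Among the ligands of the Bmp2 and Bmp4 branch, the duplicates bmp2a and bmp2b did not have the same values. The gene bmp2a, on chromosome 17 from 4068853 to 4073131 (GRCz10, minus strand), had 56.9, 44.2 and 43.7 CPM in the 24h libraries, against 23.4 and 17.1 CPM in the Control libraries. All 24h libraries lay above both Control libraries. The log2 fold change was 1.25 ± 0.20 (SE), a 2.38-fold higher level (edgeR adjusted p = 0.0041). Its duplicate bmp2b, which in the zebrafish embryo specifies ventral fates, lies on chromosome 20 from 45989445 to 45995429 on the plus strand. It had 15.2, 15.9 and 12.8 CPM in the 24h libraries, against 15.6 and 19.8 CPM in the Control libraries, and the groups overlapped. Its log2 fold change of -0.27 ± 0.18 (SE) did not pass (edgeR adjusted p = 0.31). The ratio of bmp2a to bmp2b within a library, from TPM, was 3.55 to 5.53 in the 24h libraries, against 1.095 and 1.95 in the Control libraries.

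The gene bmp4, on chromosome 17 from 50485001 to 50507066 on the plus strand, encodes the ligand closest to Bmp2. It was lower in the 24h libraries, at 12.5, 15.03 and 10.97 CPM, against 39.6 and 40.7 CPM in the Control libraries. The 24h libraries were all low and close together, and so were the Control libraries at the higher level. The log2 fold change was -1.64 ± 0.16 (SE), a level 3.12-fold higher in Control (edgeR adjusted p = 0.00049). Reads across exon-exon joints gave the same order, with 42, 67 and 36 in the 24h libraries, against 172 and 142 in the Control libraries. The ratio of bmp2b to bmp4 from TPM was 1.57 to 1.83 in the 24h libraries, against 0.590 and 0.732 in the Control libraries, so that bmp2b was above bmp4 in each 24h library and below it in each Control library.

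The Bmp5, Bmp6 and Bmp7 ligands form another branch, and Bmp7 pairs with Bmp2 in heterodimers that signal strongly in the zebrafish embryo. The gene bmp7b, on chromosome 23 from 6487442 to 6588127 on the minus strand, had 89.7, 100.05 and 101.6 CPM in the 24h libraries, against 31.0 and 35.7 CPM in the Control libraries. The groups were far apart, with a log2 fold change of 1.54 ± 0.14 (SE), or 2.91-fold (edgeR adjusted p = 0.00030). Intron reads made up 36.1% to 47.8% of its reads in a library, where all genes together had 7.22% to 7.86%. On exon reads alone the log2 fold change was 1.71 ± 0.16 (SE, edgeR adjusted p = 0.00030).

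The gene bmp7a, whose product pairs with Bmp2b in the embryo, lies on chromosome 11 from 7097959 to 7137701 on the minus strand. It had 16.5, 8.76 and 8.11 CPM in the 24h libraries, against 0.897 and 1.45 CPM in the Control libraries. These rest on 337, 207 and 125 reads in the 24h libraries and 17 and 22 reads in the Control libraries. The first 24h library was the highest, and the lowest 24h library was still well above both Control libraries. The log2 fold change of 3.26 ± 0.44 (SE), or 9.57-fold, was the largest among the 10 genes (edgeR adjusted p = 0.0024). It was 2.85 without 24h replicate 1 and 2.93 without Control replicate 1.

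The other ligands of this branch differed less. The gene bmp5, on chromosome 13 from 1741459 to 1775441, had 10.8, 10.2 and 8.24 CPM in the 24h libraries, against 13.4 and 13.2 CPM in the Control libraries. The 24h libraries were below both Control libraries, with a log2 fold change of -0.44 ± 0.18 (SE) that did not pass (edgeR adjusted p = 0.12). The gene bmp6, on chromosome 24 from 7832054 to 7906490, had the lowest level of the ligands in the 24h libraries. It had 4.21, 3.18 and 4.61 CPM there and 3.06 and 2.37 CPM in the Control libraries, and its log2 fold change of 0.54 ± 0.29 (SE) did not pass (edgeR adjusted p = 0.21). It had 36 to 86 reads in a library.

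Per exon length, the order of the ligands differed between the groups. In the 24h libraries bmp7b (79.3 ± 11.4 TPM, SD, n = 3) and bmp2a (66.0 ± 9.92) stood above the rest, followed by bmp2b (15.1 ± 1.74), bmp5 (8.96 ± 0.827), bmp4 (8.89 ± 1.78), bmp7a (6.49 ± 2.05) and bmp6 (2.97 ± 0.748). The neighbours bmp7b and bmp2a differed by less than the sum of their SDs, as did bmp5, bmp4 and bmp7a. Within each 24h library bmp5 was above bmp7a, while the order of the other pairs varied. In the Control libraries the order began with bmp4 (28.9 ± 0.976 TPM, SD, n = 2), bmp2a (28.1 ± 6.13), bmp7b (24.7 ± 4.79) and bmp2b (19.1 ± 3.54). Neighbours among these differed by less than the sum of their SDs, though bmp7b was above bmp2b in both Control libraries. The ends did not: bmp4 was at 28.2 and 29.6 TPM, against 16.6 and 21.7 TPM for bmp2b. Below these ligands stood bmp5 (12.4 ± 0.585), bmp6 (2.08 ± 0.676) and bmp7a (0.705 ± 0.325).

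Summed over the 7 ligands, the level was 186, 189 and 187 TPM in the 24h libraries, against 114 and 118 TPM in the Control libraries. The sum was thus nearly the same among libraries of a group, while its parts varied more. The share of bmp7b in this sum was 35.7% to 47.2% in the 24h libraries, against 18.8% and 23.7% in the Control libraries. The share of bmp2a was 31.8% to 41.6% in the 24h libraries, against 20.02% and 28.5% in the Control libraries. The share of bmp4 was 4.10% to 5.77% in the 24h libraries, against 24.8% and 25.0% in the Control libraries. These shares add to a whole, so they are not independent of each other.

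**Figure D2:**
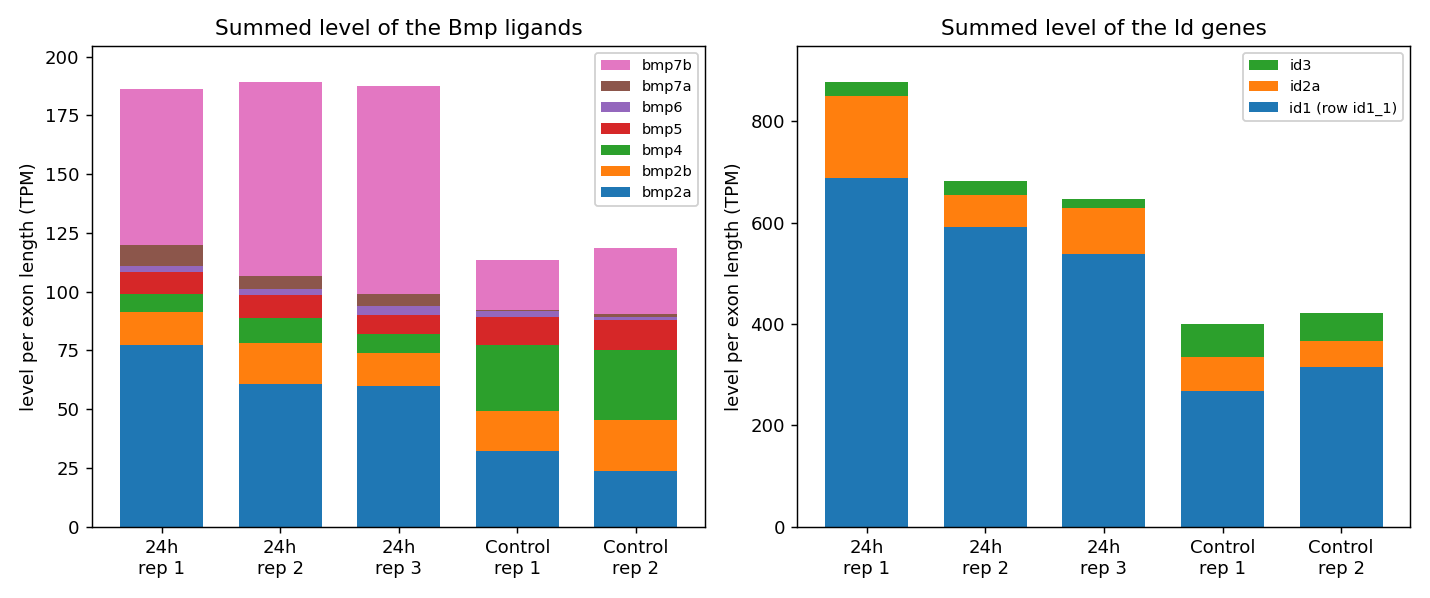
Summed level in TPM (linear axis from 0) of the 7 Bmp ligand genes (left) and the 3 Id genes (right), with the 3 24h libraries left of the 2 Control libraries and a colour for each gene. The ligand sum is 186 to 189 TPM in the 24h libraries and 114 to 118 TPM in the Control libraries, with bmp4 (green, left) a far smaller part of the 24h bars; in the Id bars, id3 (green, right) is the smallest part in the 24h libraries.

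Among the Id genes, id1 stood far above the others. Its reads lie on the row id1_1 (ENSDARG00000096939), on chromosome 11 from 18540020 to 18545706 on the plus strand. The second row, id1_2 (ENSDARG00000040764), lies inside it from 18541849 to 18542961 on the minus strand, has an exon length of 0 in the tables, and held 4 to 8 reads in a library, so it was not tested. The table of gene names pairs the symbol ID1 with the identifier of the second row and has no entry for the first. In each library 22.4% to 23.2% of the reads on id1_1 were unique to it. Whether counting used strand is not given in the sources used here, so reads of the overlapping models cannot be told apart, and values of id1 are those of the row id1_1.

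On that row id1 had 836, 617 and 553 CPM in the 24h libraries, against 285 and 333 CPM in the Control libraries. All 24h libraries were above both Control libraries, the first 24h library the most. The log2 fold change was 1.11 ± 0.21 (SE), or 2.16-fold (edgeR adjusted p = 0.0084). Without Control replicate 1 it was 1.00 and no longer passed (edgeR adjusted p = 0.094). With unique reads, which numbered 3966, 3261 and 1923 in the 24h libraries, against 1210 and 1132 in the Control libraries, it was 1.14 ± 0.21 (SE, edgeR adjusted p = 0.0070). Reads across exon-exon joints had the same order, with 3479, 2733 and 1656 in the 24h libraries, against 1048 and 995 in the Control libraries. By TPM, id1_1 ranked between place 211 and place 477 of the 31540 rows in every library.

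The gene id3, on chromosome 17 from 27253008 to 27254905 on the minus strand, differed in the other direction. It was lower in the 24h libraries, at 18.7, 14.9 and 9.93 CPM, against 36.4 and 29.9 CPM in the Control libraries. The groups did not overlap, and the log2 fold change was -1.19 ± 0.25 (SE), a level 2.28-fold higher in Control (edgeR adjusted p = 0.015). The call was lost without Control replicate 1 (-1.04, adjusted p = 0.12) and without Control replicate 2 (-1.31, adjusted p = 0.053), where 1 Control library is left and is assumed to vary like the others. The ratio of id1_1 to id3 from TPM was 21.6 to 28.8 in the 24h libraries, against 4.06 and 5.73 in the Control libraries.

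The gene id2a, on chromosome 17 from 34857951 to 34860219 on the plus strand, was spread widely within the 24h group. It had 155, 52.8 and 74.4 CPM in the 24h libraries, against 54.9 and 44.4 CPM in the Control libraries. The first 24h library was high, and the second lay between the Control libraries, so the groups overlapped. The log2 fold change of 0.92 ± 0.45 (SE) did not pass (edgeR adjusted p = 0.19) and was 0.35 without 24h replicate 1. The same 24h library was also the highest of its group for bmp2a, bmp5, bmp7a, id1 and id3, which makes 6 of the 10 genes. How often that library was the highest among all genes tested was not counted.

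Per exon length, id1_1 was at 606 ± 76.7 TPM, id2a at 105 ± 49.7 and id3 at 25.0 ± 5.61 in the 24h libraries (SD, n = 3). In the Control libraries id1_1 was at 291 ± 32.3 TPM, id3 at 60.5 ± 8.04 and id2a at 59.0 ± 9.31 (SD, n = 2), with the last 2 within their spread of each other. The Id sum was 878, 682 and 647 TPM in the 24h libraries, against 400 and 421 TPM in the Control libraries. Of that sum id3 made up 2.89% to 4.00% in the 24h libraries, against 13.01% and 16.5% in the Control libraries.

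The 2 other Id genes in the tables did not pass the test. The duplicate id2b had 10.5, 6.69 and 6.04 CPM in the 24h libraries, against 28.7 and 8.51 CPM in the Control libraries, and its log2 fold change of -1.26 ± 0.50 (SE, edgeR adjusted p = 0.12) became -0.13 without Control replicate 1. It passed in DESeq2 (adjusted p = 0.043) and without Control replicate 2 (-1.87, edgeR adjusted p = 0.013). The gene id4 had a mean of 2.40 CPM in the 24h libraries, against 1.37 CPM in the Control libraries, on 147 and 47 reads. Its log2 fold change was 0.82 ± 0.34 (SE, edgeR adjusted p = 0.13). Of the E protein genes that Id proteins bind, tcf12 was lower in the 24h libraries (log2 fold change -0.85 ± 0.15, SE, edgeR adjusted p = 0.0078). It averaged 87.7 ± 13.7 CPM (SD, n = 3) there, against 158 ± 12.8 CPM (SD, n = 2) in the Control libraries. It did not pass without Control replicate 2 (adjusted p = 0.060). The genes tcf3a (0.18 ± 0.18, SE) and tcf3b (0.08 ± 0.13, SE) did not pass.

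Other genes of the pathway were read from 7 lists by role, with 72 genes tested. In the 24h libraries 15 of them were higher (20.8%) and 24 were lower (33.3%), against the 9.43% and 14.8% of all genes given above. The median log2 fold change of these 72 was -0.19. Fewer of them passed with either Control library left out, where fewer of all genes passed too. A minimum of 10 CPM in 2 libraries takes out pathway genes of low level. With it 14 were higher and 12 lower, where 1040 and 1698 of all 10586 genes tested were. How many of the 72 were still tested with it was not counted, so these counts are not shares of 72.

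**Figure D3:**
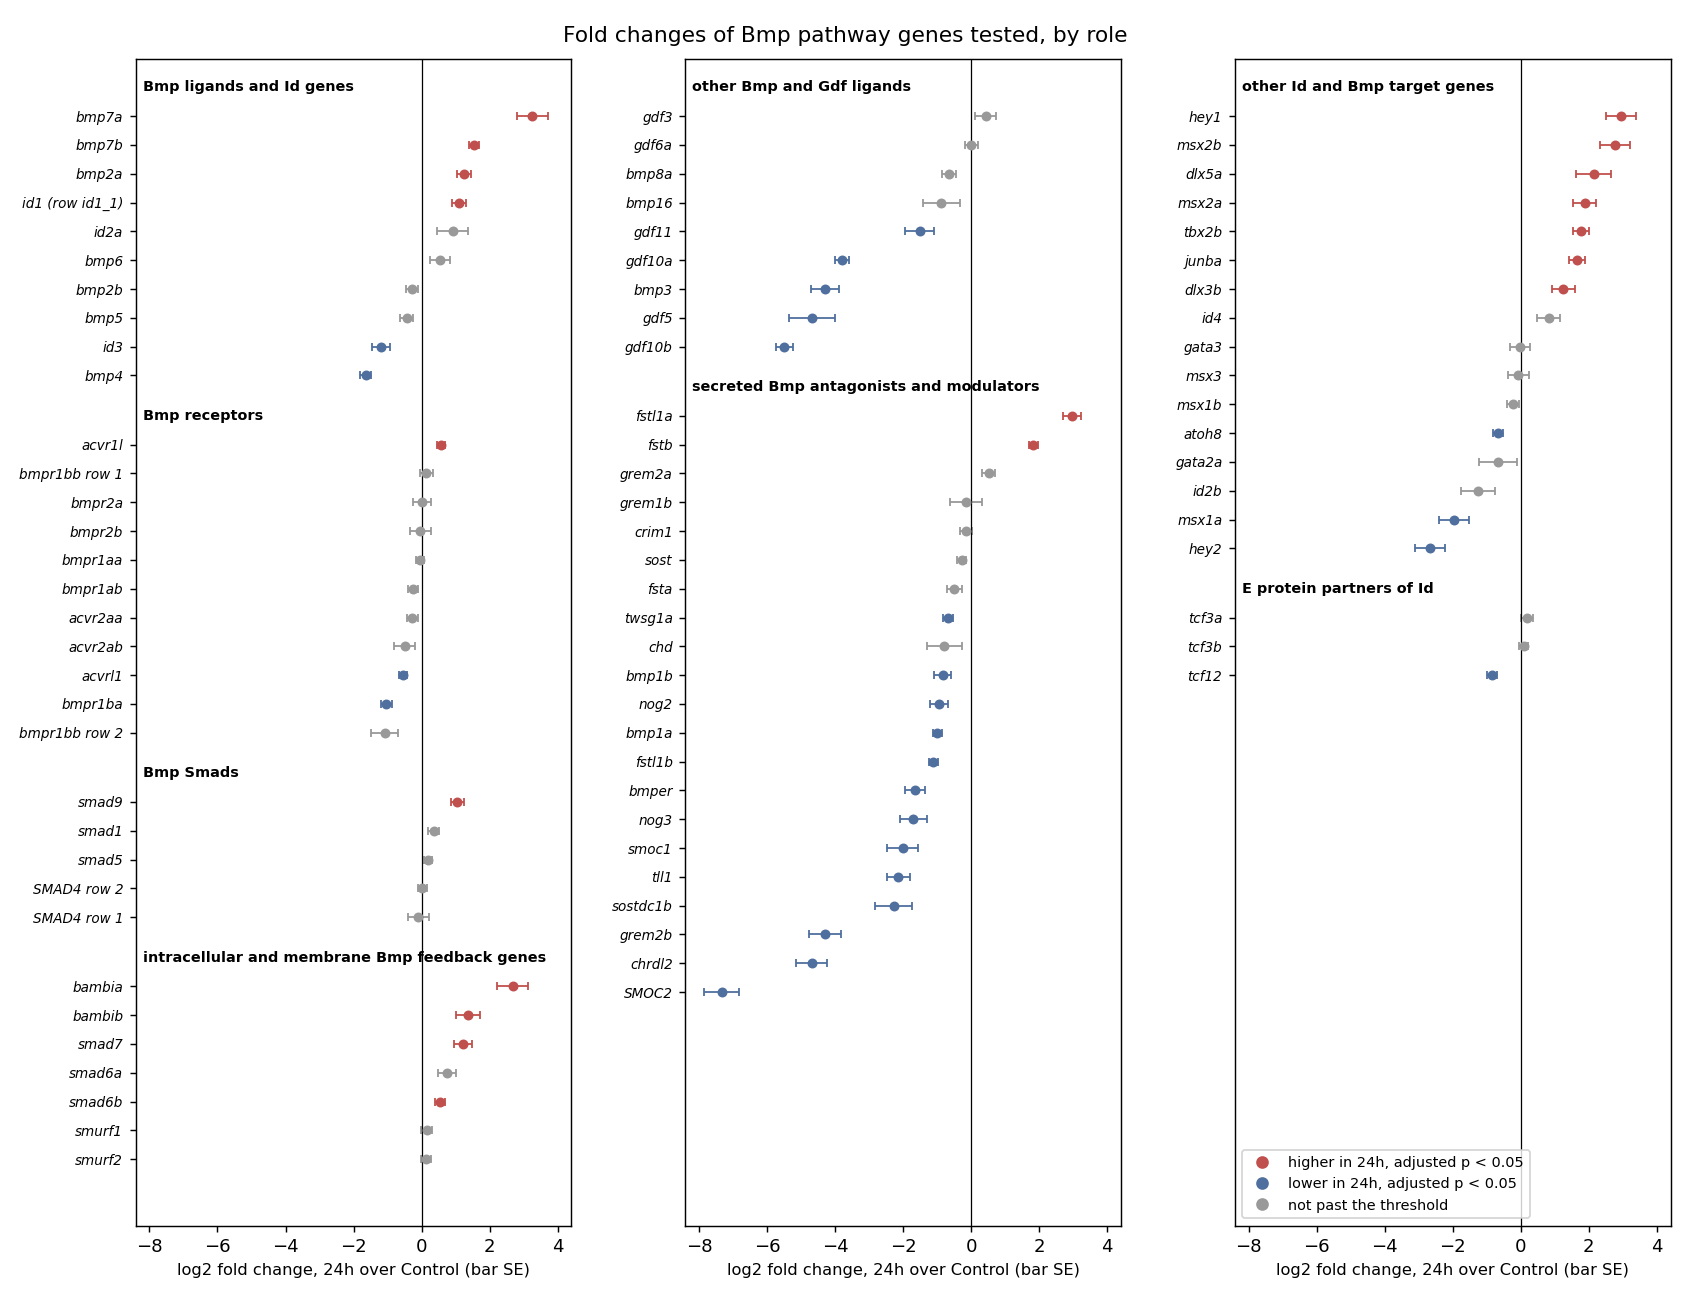
Log2 fold change, 24h over Control, of every Bmp pathway gene tested, by role; points are edgeR estimates, bars are SE, and colour gives the call at an adjusted p under 0.05 (red higher, blue lower, grey not past it). Among feedback genes the 4 coloured points are all red, and among secreted antagonists and modulators 13 of the 21 points are blue; the estimate of SMOC2 rests on 4 reads in the 24h libraries.

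Of 9 other Bmp and Gdf ligand genes tested, 5 were lower and 4 did not pass, and another 7 rows had too few reads to test. Among all genes tested 14.8% were lower and 9.43% higher. The median log2 fold change of the 9 was -1.52. The gene gdf10b, of the Bmp3 branch, had 0.538, 0.635 and 0.974 CPM in the 24h libraries, against 33.5 and 29.7 CPM in the Control libraries (-5.49 ± 0.25, SE, edgeR adjusted p = 1.9e-05). Of its few 24h reads 87.8% lay in introns, and on exon reads the value was -8.24 (edgeR adjusted p = 1.8e-05), so the size of the difference depends on the reads counted. Its duplicate gdf10a averaged 2.86 ± 0.634 CPM (SD, n = 3) in the 24h libraries, against 39.7 ± 1.66 CPM (SD, n = 2) in the Control libraries (-3.80 ± 0.21, SE). The gene bmp3, whose product in mammals opposes bone-inducing Bmps, averaged 0.653 ± 0.357 CPM (SD, n = 3) in the 24h libraries, against 12.7 ± 0.917 CPM (SD, n = 2) in the Control libraries. It had a log2 fold change of -4.29 ± 0.41 (SE), and overlaps another gene model on its strand.

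Of 11 receptor rows tested, acvr1l was higher and acvrl1 and bmpr1ba lower, where 24.3% of all genes tested were called. The median over the rows was -0.24 on the log2 scale. The type I receptor gene acvr1l, known as alk8 in zebrafish, averaged 76.9 ± 2.95 CPM (SD, n = 3) in the 24h libraries, against 52.1 ± 0.114 CPM (SD, n = 2) in the Control libraries (0.56 ± 0.12, SE, edgeR adjusted p = 0.013). The gene acvrl1, a type I receptor of blood vessels, had a log2 fold change of -0.54 ± 0.11 (SE, edgeR adjusted p = 0.014). Neither passed when one of the Control libraries was left out (adjusted p = 0.087 to 0.12), nor did acvrl1 when 24h replicate 2 was left out (adjusted p = 0.052). For bmpr1ba the log2 fold change of -1.03 ± 0.16 (SE) rested on introns, which held 92.1% of its reads in the 24h libraries, against 96.0% in the Control libraries. On exon reads it was -0.04 ± 0.24 (SE, edgeR adjusted p = 0.91). The receptor genes bmpr1aa (-0.06 ± 0.12, SE) and bmpr2a (0.02 ± 0.26, SE) did not pass. Nor did the rows bmpr1bb_1 (0.14 ± 0.20, SE) and bmpr1bb_2 (-1.09 ± 0.39, SE) on total reads. By TPM, bmpr1bb_1 had 0.357, 0.628 and 0.699 in the 24h libraries, against 2.08 and 4.39 in the Control libraries. The row bmpr1bb_2 had 0.156, 0.157 and 1.47 TPM, against 4.99 and 2.88 TPM. These levels are low, and introns held 96.0% and 86.7% of their 24h reads.

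Against 9.43% of all genes tested, 1 of 5 Smad rows was higher, that of smad9. It had 54.3, 45.4 and 37.6 CPM in the 24h libraries, against 24.8 and 19.5 CPM in the Control libraries, which is 1.05 ± 0.20 on the log2 scale (SE, edgeR adjusted p = 0.0089), and did not pass without Control replicate 2 (0.90, adjusted p = 0.070). Its relatives smad1 (0.36 ± 0.16, SE) and smad5 (0.19 ± 0.11, SE) did not pass.

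Genes that dampen the signal in the cell, many of them Bmp targets themselves, were higher in 4 of 7 cases, and the other 3 did not pass. Among all genes tested 9.43% were higher and 14.8% lower. The median of the 7 was 0.74 on the log2 scale. The pseudoreceptor gene bambia had 437, 353 and 209 CPM in the 24h libraries, against 33.6 and 71.0 CPM in the Control libraries. The groups were far apart, with a log2 fold change of 2.67 ± 0.45 (SE, edgeR adjusted p = 0.0080). It overlaps the gene model waca on its strand, 36.7% of its reads were unique, and on unique reads the log2 fold change was 2.25 (edgeR adjusted p = 0.0078). Without Control replicate 1 the value was 2.23, and with Control replicate 2 left out it was 3.33. Its duplicate bambib was at 1.35 ± 0.35 (SE, edgeR adjusted p = 0.036), with no call without 24h replicate 1 or 2, Control replicate 1 or the low-count filter (adjusted p = 0.080 to 0.11) and a value of 2.06 without Control replicate 2. The inhibitory Smad gene smad7 had 78.7, 45.5 and 46.1 CPM in the 24h libraries, against 26.9 and 21.9 CPM in the Control libraries (1.22 ± 0.27, SE, edgeR adjusted p = 0.020), and did not pass without either Control library (adjusted p = 0.089 and 0.13). Of the other inhibitory Smads, smad6b passed narrowly (0.54 ± 0.15, SE, edgeR adjusted p = 0.039). It lost its call in 7 of 16 alternatives. These were a minimum of 10 CPM in 2 libraries, limma on log2(TPM + 1) or log2(TPM + 0.1), and leaving out 24h replicate 1 or 2 or either Control library. The gene smad6a did not pass (0.74 ± 0.27, SE, edgeR adjusted p = 0.088) except without 24h replicate 3 (0.92, edgeR adjusted p = 0.025).

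Secreted antagonists and modulators were mostly lower: 13 of 21 tested were lower and 2 higher, and their median was -0.94 on the log2 scale. Of all genes tested, 14.8% were lower and 9.43% higher. The 13 are not all antagonists, so the count is not one of Bmp inhibitors alone. They include the protease genes bmp1a (-0.997 ± 0.138, SE), bmp1b (-0.834 ± 0.252, SE, edgeR adjusted p = 0.049) and tll1 (-2.14 ± 0.33, SE). The Noggin gene nog3, whose product traps Bmps, had 2.10, 2.71 and 1.104 CPM in the 24h libraries, against 5.01 and 8.11 CPM in the Control libraries (-1.70 ± 0.39, SE, edgeR adjusted p = 0.020), a call lost without 24h replicate 1 (0.052) or Control replicate 2 (0.15), by adjusted p. The matrix gene SMOC2 had 4 reads over the 24h libraries, against 406 over the Control libraries. The chordin gene, named chd in the tables, had 26 reads over the 24h libraries, against 27 over the fewer Control libraries. Its mean was 0.460 CPM in the 24h libraries, against 0.765 CPM in the Control libraries. The log2 fold change of -0.79 ± 0.52 (SE) did not pass (edgeR adjusted p = 0.30). The higher ones were fstl1a, a follistatin-like gene, with 258, 200.2 and 144 CPM in the 24h libraries, against 24.65 and 26.7 CPM in the Control libraries (2.97 ± 0.26, SE, edgeR adjusted p = 0.00036), and the follistatin gene fstb (1.83 ± 0.13, SE, edgeR adjusted p = 9.7e-05). The duplicate fstl1b stood at a higher level than fstl1a and was lower in the 24h libraries. It had 443, 455 and 457 CPM there, against 931 and 1018 CPM in the Control libraries (-1.11 ± 0.12, SE, edgeR adjusted p = 0.00086).

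Of 16 other Id genes and genes known as Bmp targets in some tissue, id2b and id4 among them, 7 were higher and 3 lower. Over all genes tested, 9.43% were higher and 14.8% lower. The median of the 16 was 0.40 on the log2 scale. The T-box gene tbx2b had 14.7, 11.4 and 12.3 CPM in the 24h libraries, against 3.27 and 4.29 CPM in the Control libraries (1.76 ± 0.23, SE, edgeR adjusted p = 0.0017). The AP-1 gene junba averaged 525 ± 149 CPM (SD, n = 3) in the 24h libraries, against 168 ± 8.55 CPM (SD, n = 2) in the Control libraries (1.65 ± 0.24, SE, edgeR adjusted p = 0.0035). The repressor gene hey2 was lower (-2.68 ± 0.44, SE, edgeR adjusted p = 0.0051), on 16 reads over the 24h libraries and 60 over the Control libraries. It averaged 0.266 ± 0.109 CPM (SD, n = 3), against 1.75 ± 0.141 CPM (SD, n = 2) in the Control libraries. The call was lost without Control replicate 1, where 1 Control library is left. The related gene hey1 differed in the other direction, 7.68-fold higher (2.94 ± 0.45, SE, edgeR adjusted p = 0.0058). Per library hey1 reached 119.7, 72.5 and 43.2 CPM in the 24h group, and 9.40 and 11.1 CPM in Control.

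These are bulk samples, in which fewer cells of a type and less RNA per cell cannot be told apart, and marker genes of several cell types moved with the same contrast. Of 10 wound epidermis and keratinocyte genes, 7 were higher and 3 did not pass, with summed levels of 49615 to 63549 CPM in the 24h libraries and 38335 to 46269 CPM in the Control libraries. The largest part of these sums was krt5, at means of 23385 CPM in the 24h libraries and 30460 CPM in the Control libraries. It did not pass (-0.38 ± 0.18, SE). Of 10 osteoblast genes, 7 were lower and 3 did not pass, with sums of 3298 to 4311 CPM in the 24h libraries and 31096 to 31476 CPM in the Control libraries. The osteoblast sum in Control was mostly the collagen genes col1a1a and col10a1a, at means of 19849 and 10695 CPM. Of 9 endothelial genes, 8 were lower, with sums of 24.8 to 28.4 CPM in the 24h libraries and 174 to 175 CPM in the Control libraries, and all 6 melanophore genes were lower, with sums of 3.47 to 5.97 CPM in the 24h libraries, against 193 to 212 CPM in the Control libraries. Of 10 blastema and fin mesenchyme genes, 3 were higher and 4 lower, with sums of 2329 to 2867 CPM in the 24h libraries and 8564 to 8770 CPM in the Control libraries. The Control sum was mostly the actinodin genes and1 and and2, and without this pair, left out after its values were seen, the other 8 genes summed to 1872, 2196 and 2193 CPM in the 24h libraries, against 1208 and 1350 CPM in the Control libraries, the opposite order. Among these 8 genes tph1b, fgf20a and aldh1a2 were higher, and prrx1a and prrx1b lower, so the sum does not give the order of each gene. The gene tph1b alone had a mean of 525 CPM in the 24h libraries, against 24.6 CPM in the Control libraries. Of the macrophage genes, 3 of 6 were lower (539 to 1381 CPM in the 24h libraries, against 1336 to 1521 CPM in the Control libraries). Beside these counts, 9.43% of all genes tested were higher and 14.8% lower. No marker of these 6 lists had 0 reads in all libraries of a group. Their part in the values of the Bmp and Id genes was not tested.

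**Figure D4:**
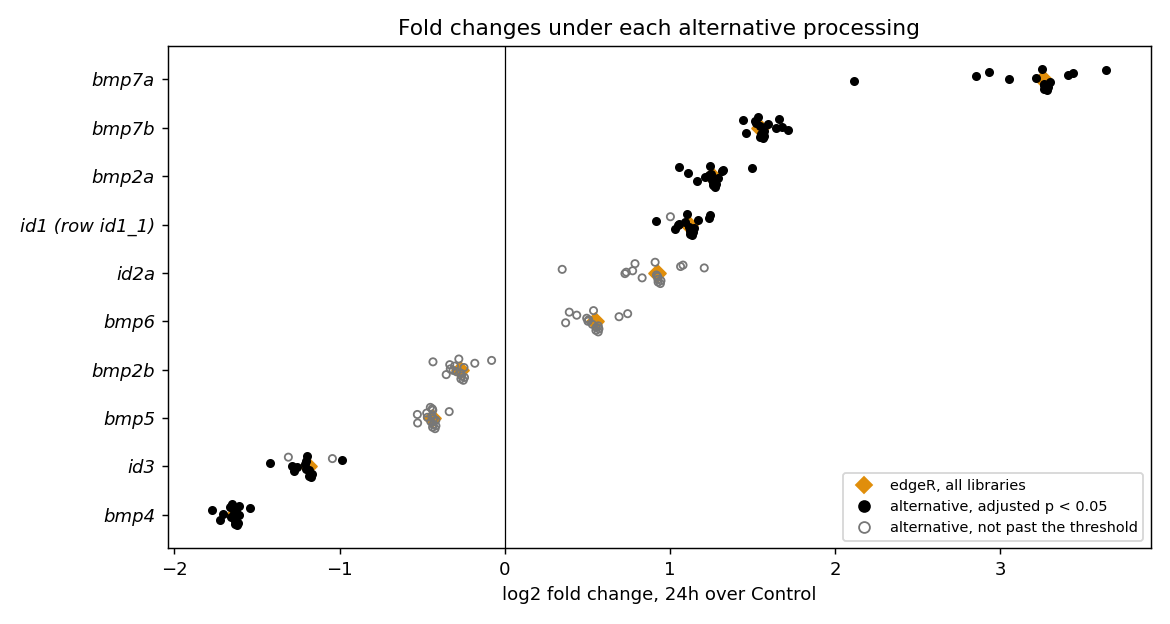
Log2 fold change, 24h over Control, of the 10 genes in edgeR with all libraries (orange diamonds) and under each of the 16 alternatives (circles; filled where the adjusted p was under 0.05, open where it was not). Each gene keeps its sign throughout; open circles for called genes appear only at id1, without Control replicate 1, and at id3, without either Control library.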

How the data were processed

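Each of the 5 libraries has its own deposited table. Per the file headers it holds whole-number counts of total, unique, exon, exon-exon and intron reads per gene, and deposited TPM values (levels per exon length and depth), which a recomputation from exon counts and lengths matched to a relative 1.97e-13. Per the submitters' processing notes the build was GRCz10; the sources used here give neither aligner nor counter. Tests used total gene reads of all 5 libraries: edgeR 4.0.16 (R 4.3.3) quasi-likelihood F test, TMM scaling, filterByExpr (19034 of 31540 genes kept), robust dispersion, Benjamini-Hochberg over all genes, threshold 0.05. SEs were obtained as |log2 fold change| over root F. The code was tested on simulated counts. All library pairs differed beyond counting noise (lowest chi-square/df 15.2).

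The 10 genes and the lists were chosen with earlier results of these data known. Of 165 list entries, 10 had no row. Named beyond the 10 genes were the 3 smallest p of each list and 14 fixed pathway genes. Beyond that rule, fstl1b, bmp1a, bmp1b, tll1, hey1 and the rows of bmpr1bb were named after their values were seen. These were not followed through the alternatives. Alternatives were DESeq2 1.42.0, limma 3.58.1 (voom, and log2(TPM + 1) or log2(TPM + 0.1)), RLE and upper-quartile scaling, other filters, unique or exon reads, no top 20 genes, and leaving out each library.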

Additional observations from a re-analysis of the deposited data

How the results depend on the processing

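The 10 genes kept their sign under each of the 16 alternatives that tested them; 155 of their 158 values stayed on the same side of the threshold, and the other 3 are the losses of id1 and id3 named above. Leaving out 1 library at a time gave 3 to 4 higher and 1 to 2 lower members, 7 to 16 higher and 13 to 22 lower pathway genes, and 1790 to 4693 genes called in all; the low ends came without a Control library (1790 and 2208 genes in all without Control replicate 1 and 2). A filter of 10 CPM in 2 libraries, which tests fewer genes and takes out bmp6 and bmp7a, gave 2738 genes in all and 12 lower pathway genes. For bmp7a the log2 fold change was 2.11 on log2(TPM + 1), where the pseudocount is close to its Control level, and 3.05 on log2(TPM + 0.1). Likewise bmp3 was at -3.25 and hey2 at -1.26 on log2(TPM + 1), and gdf10b was at -7.84 on log2(TPM + 0.1). Among the 29 other genes named by smallest p or as fixed genes, 430 of 459 values stayed on the same side, 26 lost and 3 gained a call, and none reversed. No paired analysis was run because the labels give no replicate numbers shared by the groups. The replicate numbers used here only name libraries within a group and pair none between groups. With 2 Control libraries, small differences such as those of bmp5 and bmp6 did not pass, which does not show that they are absent.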
